A study of Homo sapiens with 12 samples.

Results

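What a full 6 h block of transcription did to the RNA of HepG2 cells depleted of CPSF6 was read from 4 of the study's 12 libraries, the 2 replicates at 0 h and the 2 at 6 h of the silenced arm. HepG2 is an established line grown from a human liver tumour, and it makes many plasma proteins of the hepatocyte. All cells had been transfected with siRNA and grown for 48 h; the silenced arm got siRNA against CPSF6 (siCPSF6) and the control arm got siNC. Every group then had actinomycin D at 5 µg/ml for 0, 3 or 6 h, which gives 6 groups of 2 biological replicates. The 0 h cells of the silenced arm, which carry the same knockdown, are the baseline of every change below. The 3 h libraries and the control arm were used to place these changes in time and to test where the arms differed.

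Actinomycin D binds DNA and stops RNA polymerases, so that after its addition an mRNA can only be lost, by decay, at a rate of its own. Short-lived mRNAs typically encode regulators (transcription factors, feedback inhibitors, cell cycle proteins), and many carry AU-rich elements in the 3′ UTR, which are bound by decay factors such as the ZFP36 proteins. Long-lived mRNAs typically encode abundant housekeeping and secreted proteins, which in hepatocytes include albumin, apolipoproteins and clotting factors. CPSF6 is a subunit of cleavage factor Im, which binds UGUA motifs upstream of poly(A) sites and takes part in the choice of where an mRNA ends.

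Values were compared on 2 scales because the outcome depends on what is held constant. On the authors' scale, all libraries have the same upper quartile of gene values, so a surviving mRNA appears to gain when others are lost. On the spike-in scale, each library was divided by the sum of its ERCC spike-in values; these synthetic RNAs were added to 5 µg of total RNA, so the scale is per mass of total RNA and not per cell. Neither scale gives the number of cells or the amount of mRNA per cell. Over the silenced arm the 2 scales differed by a constant shift, with a median log2 change over 12939 genes of 0.35 as deposited and -0.50 on the spike-in scale. A gene is said below to have fallen or risen only if it passed on both scales. All 3576 genes lower as deposited were lower against the spike-ins, and all 754 higher against the spike-ins were higher as deposited. A fall is thus the deposited call and a rise the spike-in call, and the second pass is no added support. Every log2 change is on the spike-in scale unless another is named. The normalized counts of the 12 libraries summed to between 19133288 and 33352246, of which spike-ins took 1.125% to 1.429%. The spike-in factors of replicates 1 and 2 of the silenced arm were 0.7295 and 0.6925 at 0 h, 1.1698 and 0.9058 at 3 h and 1.3292 and 1.2522 at 6 h, so that the 3 h libraries stood farthest apart; an error of this scale is shared by all genes of a library. All 10 hepatocyte markers were expressed, with a summed TPM (a length-corrected share of all transcripts) of 19500 and 18800 at 0 h and 25900 and 26000 at 6 h. Of 17 markers of other cell types (stroma, endothelium, immune cells), 11 were among the deposited entries and 7 passed the filter. Those present summed to 50.3 and 50.7 TPM at 0 h and 63.4 and 63.0 at 6 h in these libraries. VWF was at 0 in both 6 h libraries, and COL3A1 and LST1 were at 0 in both 0 h libraries.

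By 6 h, 3576 genes (27.6% of 12939) had fallen on both scales and 754 (5.83%) had risen on both. As deposited, 49.8% of genes were higher and 27.6% lower at an adjusted p under the threshold of 0.05; on the spike-in scale 5.83% were higher and 52.4% lower. Without spike-ins, the 3576 genes lower as deposited became 4574 of the same 12939 with median-ratio scaling over genes and 5907 with TPM. The TPM fit took genes with a mean TPM of at least 1, so 5907 is a count over another set of genes. With TPM the genes lower included 20 of 36 translation factors (11 with median-ratio scaling), 16 of 31 proteasome subunits (9) and 13 of 26 cholesterol genes (8). They also included 22 of 34 splicing genes, 25 decapping and decay genes and 23 DNA replication genes. These list counts were not set against the share of all genes lower with TPM. They show how the scale moves calls and are no result about the lists. The scale thus decided the direction of 1026 genes, which were higher as deposited and lower against the spike-ins. Against the spike-ins 1589 genes (12.3%) kept under 25% of their 0 h level, 2675 kept 25 to 50%, 5447 kept 50 to 100% and 3228 stood above 100%. In the first of these classes 96.1% of genes were already under 50% at 3 h, where the class had a median of 26.4% of the 0 h level. With 1 library left out, the median log2 change was 0.34 to 0.354 as deposited and -0.555 to -0.458 on the spike-in scale. The sign of neither median rested on a single library. The count of rises did: it was 345 and 476 without the 0 h replicates 1 and 2, 455 and 418 without the 6 h replicates 1 and 2, and 1135 and 1139 without the 3 h replicates 1 and 2 of the silenced arm.

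CPSF6 itself, on chromosome 12 (12:69239537-69274358, hg38), checked the labels. Its normalized counts in silenced cells were 768 and 718 at 0 h, 674 and 801 at 3 h and 810 and 732 at 6 h. Control libraries held 2147 and 2082 at 0 h, 3389 and 3309 at 3 h and 3469 and 3443 at 6 h, so that no silenced library reached any control library. On the spike-in scale the remaining CPSF6 mRNA stood at 57.2% of its 0 h level at 6 h (log2 change -0.81, SE 0.16, adjusted p = 3.0e-05), but as deposited it did not pass (0.05, adjusted p = 0.57). Its change did not pass as different from that in control cells on the spike-in scale (control -0.25, adjusted p of the difference 0.11). Of its partners in cleavage factor Im, named here for that role, NUDT21 had a log2 change of -0.11 and CPSF7 of -0.85 (0.75 and 0.01 as deposited), neither passing on both scales in 1 direction.

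The AU-rich heptamer TATTTAT, which contains the ATTTA pentamer recognised by AU-rich element binding proteins, was searched on the sense strand of the longest annotated 3′ UTR of each gene (GENCODE release 29, hg38). The longest annotated UTR need not be the one present in these CPSF6-depleted cells, and the UTR in use was not determined. Of the 20 genes with the largest falls 19 had a UTR, and 5 held the heptamer; of the 15 with the largest rises 7 had one, and 0 held it. The share was 34.3% over all 11636 genes with an annotated 3′ UTR, so the largest falls did not stand above that background. The windows of 23 bases below are shown for those 5 genes, and for FGB and FTH1, which kept their mRNA and hold the heptamer too. Capitals mark the heptamer, written as DNA 5′ to 3′ on the sense strand.
NFKBIA, chr14:35401702-35401724, minus strand: acattttaTATTTATtgtgcttc
ID2, chr2:8683878-8683900, plus strand: atattcgtTATTTATgaaaaaga
SGK1, chr6:134260998-134261020, minus strand: taggcccaTATTTATtttgattt
FBXO42, chr1:16249878-16249900, minus strand: aaaaaacaTATTTATtctcctct
HAMP, chr19:35285070-35285092, plus strand: cccttcctTATTTATtcctgctg
FGB, chr4:154571004-154571026, plus strand: taaaactaTATTTATttatgtag
FTH1, chr11:61964435-61964457, minus strand: agtatttgTATTTATtaaactca

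By class of remaining level, the share that held the heptamer was 40.7% in genes that kept under 25%, 44.0% in those that kept 25 to 50%, 35.3% in those that kept 50 to 100% and 20.7% in those above 100%, so it was highest in the second class and not in the genes lost most. UTR length moved with it, with median lengths of 1410, 1809, 1430 and 821 bases in the same order. Within each of 5 bins of UTR length, genes with the heptamer had the lower median change: -0.52 against -0.20 under 500 bases, -0.64 against -0.35 from 500 to under 1000 bases, -0.78 against -0.51 from 1000 to under 2000, -0.84 against -0.63 from 2000 to under 4000 and -0.83 against -0.65 from 4000 bases on. The GC share at the third codon positions moved with the classes as well, with medians of 54.5%, 50.1%, 57.8% and 68.4%. These are descriptions across genes, which are not independent, and no sequence feature was tested. A heptamer in the longest annotated UTR marks neither loss nor survival in a given gene: BAMBI, MYC and XBP1 lack it in this annotation and fell, and FGB and FTH1 hold it and rose.

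**Figure D1:**
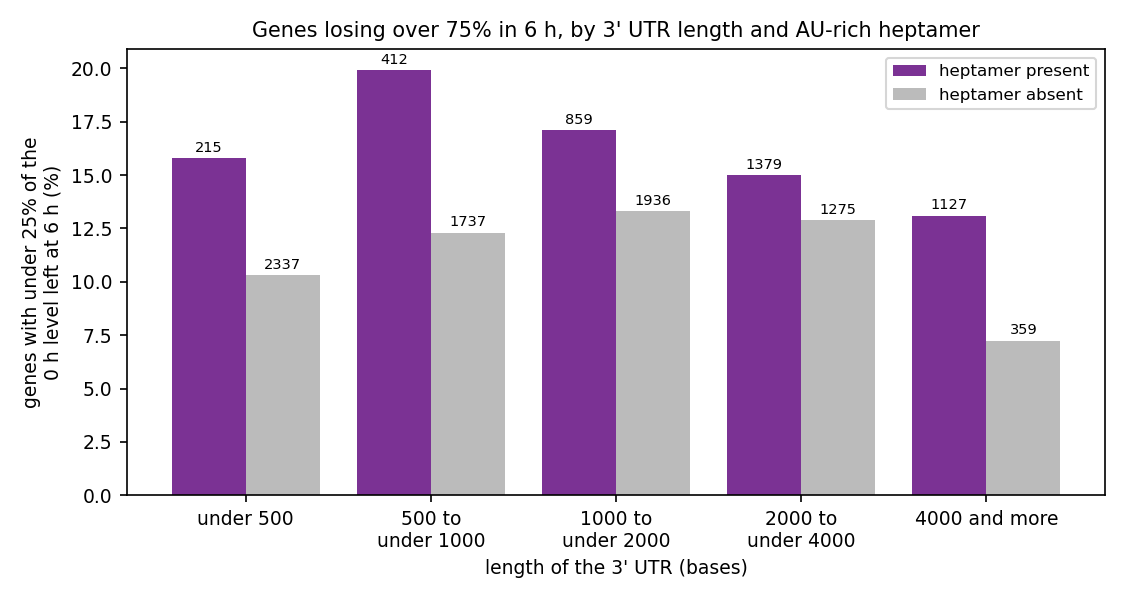
Share of genes that kept under 25% of their 0 h level at 6 h (y axis, percent; siCPSF6, spike-in scale) by 3′ UTR length in bases (x axis), with the AU-rich heptamer (purple) and without it (grey); numbers above the bars count genes. In each bin the purple bar is higher, with 19.9% against 12.3% for UTRs of 500 to under 1000 bases.

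The immediate early list and the kinase feedback and BMP and TGF-β lists described after it had the lowest list medians. Of 17 immediate early, AP-1 and MYC family genes 14 fell, against 27.6% of all genes tested, and the list's median was 10.8% of the 0 h level, a log2 change of -3.22 against -0.50 for all genes. MYC, which drives growth and proliferation, had normalized counts of 5448 and 4714 at 0 h, 328 and 233 at 3 h and 214 and 166 at 6 h. That is 2.06% of the 0 h level (log2 -5.60, SE 0.18, adjusted p = 3.9e-30), and most of the loss had occurred by 3 h. The AP-1 gene JUN went from 1728 and 1553 at 0 h to 176 and 158 at 3 h and 225 and 205 at 6 h; it had reached its low level by 3 h and stood at 7.26% at 6 h. JUND (-3.97), FOSL1 (-3.58), IER2 (-3.25) and IER3 (-4.35) fell too. MAFK, a small MAF factor that partners NRF2, did not pass on the spike-in scale, with 395 and 431 at 0 h and 921 and 939 at 6 h (0.31); it passed without either 3 h replicate of the silenced arm (0.31). All 13 KLF and SP factors were lower against the spike-ins and 11 fell, among them KLF10 (-4.10) and KLF3 (-1.74).

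Feedback inhibitors of signalling fell too. Of 19 kinase feedback genes 18 fell, against 27.6% of all genes, with a median of 11.2% remaining. TRIB1, a pseudokinase that directs C/EBP factors to degradation, went from 1561 and 1484 to 50 and 54 (-5.70). ERRFI1, which inhibits the EGF receptor, went from 12662 and 11250 to 2927 and 2693, leaving 13% (-2.95, SE 0.15). SPRED2 (-3.16), SPRY1 (-2.85), DUSP16 (-3.01) and TRIB3 (-3.63) fell as well. Of 17 NF-kB feedback and chemokine genes 10 fell, with a median of 35.9% remaining. NFKBIA, which encodes the inhibitor IκBα (14:35401511-35404749), dropped from 1899 and 2320 at 0 h to 44 and 51 at 3 h and 45 and 64 at 6 h. This left 1.44% (-6.12, SE 0.35, adjusted p = 2.9e-09), with no overlap between 0 h and 6 h. The 3 h and 6 h counts overlapped. The other inhibitors NFKBIE (-4.40), BCL3 (-2.84) and TNFAIP3 (-1.93) fell, and the subunits NFKB1 (-1.79), NFKB2 (-1.62) and RELA (-1.34) fell by less. The target genes ICAM1 and CCL20 kept their mRNA, with log2 changes of 0.10 and 0.00 that did not pass; CCL20 counts were 1655 and 745 at 0 h and 2781 and 1463 at 6 h, with overlap between the times.

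Targets and inhibitors of BMP and TGF-β signalling fell as well. Of 16 genes on this list 14 fell, against 27.6% of all genes, with a median of 14.6% remaining. BAMBI, a decoy receptor that blocks this signalling, had 558 and 614 normalized counts at 0 h, 66 and 38 at 3 h and 8 and 3 at 6 h (-7.40, SE 0.38, adjusted p = 5.8e-18), so that its final level rests on few reads. The ID proteins are BMP targets that hold back differentiation factors. ID1 fell from 10092 and 9723 to 1134 and 1125, ID2 from 5096 and 5807 to 217 and 215, and ID3 from 4365 and 4278 to 193 and 254, leaving 6.29%, 2.20% and 2.84%. HAMP, the BMP-driven hormone hepcidin that lowers iron uptake, went from 1271 and 1373 at 0 h to 234 and 214 at 3 h and 56 and 89 at 6 h (3.00% left). The repressors SKI (-2.43), TGIF1 (-2.91) and TGIF2 (-3.36) fell too.

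Most mRNAs of the factors that specify the hepatocyte were lost. Of 23 hepatocyte transcription factors 17 fell, against 27.6% of all genes, and the median was 23.1% remaining. FOXA1, a pioneer factor of liver development, went from 2409 and 2792 at 0 h to 278 and 366 at 6 h (6.80% left), and FOXA2 and FOXA3 kept 8.93% and 10.1%. GATA4 fell from 914 and 958 to 81 and 86, leaving 4.99% (-4.33, SE 0.21). NR0B2, the bile acid induced repressor SHP, kept 3.46%, and ELF3, an epithelial ETS factor, kept 2.46%. HNF4A, at the core of the hepatocyte network, fell by less, from 3783 and 3904 at 0 h to 2565 and 2929 at 6 h (39.3% left). Circadian genes fell in 9 of 17 cases, among them NR1D1 (-3.33), NFIL3 (-3.88), PER1 (-1.68) and PER2 (-1.78).

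**Figure D2:**
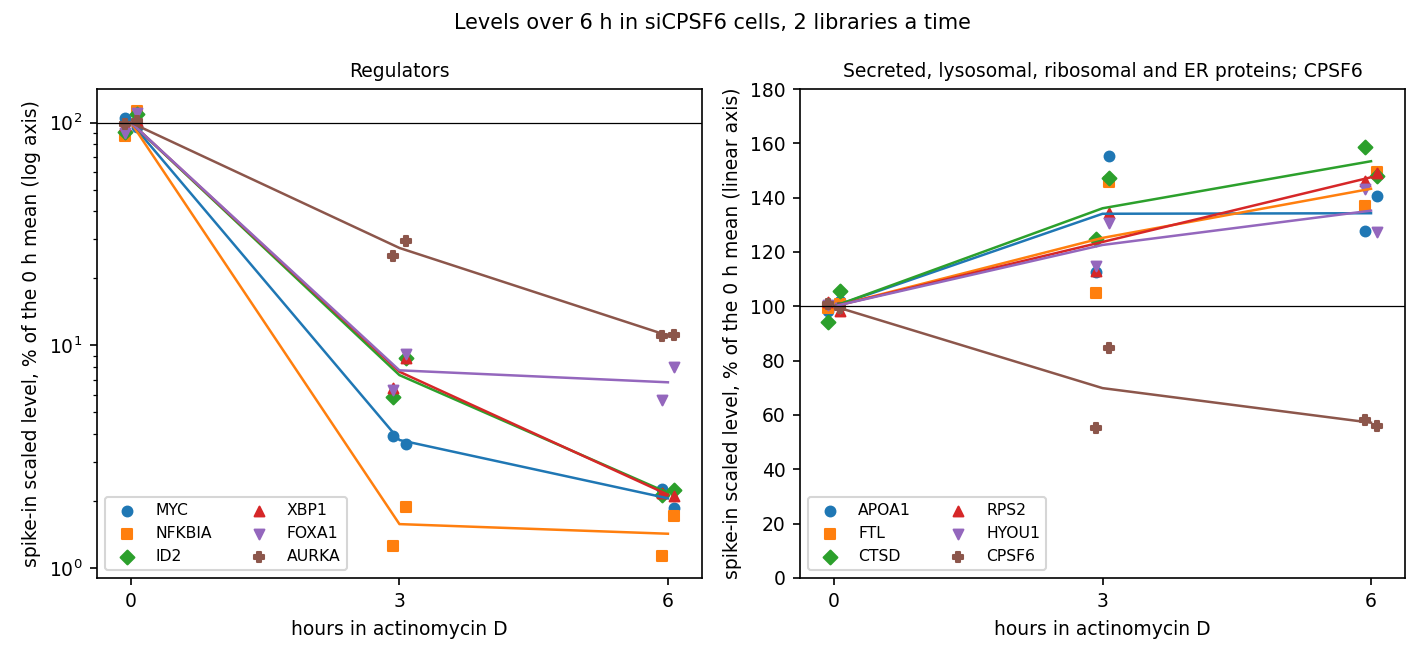
Spike-in scaled level as percent of the 0 h mean (y axis; log on the left, linear on the right) against hours in actinomycin D in siCPSF6 cells; points are the 2 libraries of a time and lines join their means. MYC, NFKBIA, ID2 and XBP1 end between 1.44% and 2.20%, FOXA1 at 6.80% and AURKA at 11.1%, whereas the secreted, lysosomal, ribosomal and ER genes end above 100% and CPSF6 at 57.2%.

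Of 24 plasma carrier proteins and protease inhibitors 14 rose, of 26 coagulation and complement genes 13 rose, and of 18 apolipoprotein and lipoprotein genes 7 rose and 1 fell, against 5.83% of all genes that rose. These rises were small and near the error of the spike-in scale: the list medians were 0.35, 0.37 and 0.32, or 127%, 129% and 125% of the 0 h level. APOA1, the main protein of HDL, had 53456 and 52734 normalized counts at 0 h and 126972 and 131593 at 6 h (0.42, SE 0.13, adjusted p = 0.0052). APOB, of VLDL and LDL, had 225507 and 218616 and then 571859 and 529090 (0.45, SE 0.12). Transthyretin (TTR, 0.59), retinol binding protein (RBP4, 0.48), vitronectin (VTN, 0.49), the C1 inhibitor SERPING1 (0.78), complement C3 (0.39), prothrombin (F2, 0.42) and fibrinogen β (FGB, 0.46) rose. ALB, named here as the main hepatocyte product, did not pass (0.27, adjusted p = 0.071). The counts of rises depend on single libraries. The plasma list had 7 rises without 0 h replicate 2 or 6 h replicate 2 and 9 without 0 h replicate 1 or 6 h replicate 1; the coagulation list had 3 and 4 without 0 h replicates 1 and 2 and 5 and 4 without 6 h replicates 1 and 2; and the lipoprotein list had 4 without 6 h replicate 2. They depend on the settings too. Without limma's trend and robust settings the 3 lists had 5, 6 and 4 rises, and with TPM scaled to its spike-ins 5, 4 and 4. With the median ratio of the spike-ins the plasma and coagulation lists had 7 and 6, without a filter the coagulation list had 6, and with the replicate block the lipoprotein list had 11 (13 with only the groups compared). APOA1 (0.35) and TTR (0.47) did not pass without 6 h replicate 2, FGB without 0 h replicate 1 (0.31) or 6 h replicate 2 (0.35), and SERPING1 without 6 h replicate 1 (0.56). C3 and F2 did not pass without 0 h replicate 2 (0.38 and 0.36) or 6 h replicate 1 (0.35 and 0.41). ALB passed without either 3 h replicate (0.27).

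Genes of the response to unfolded proteins in the endoplasmic reticulum (ER) held both falls and rises. Of 29 genes of this and the integrated stress response, 10 fell and 7 rose, against 27.6% and 5.83% of all genes. XBP1, the transcription factor of this response, fell from 5660 and 5605 at 0 h to 596 and 632 at 3 h and 229 and 209 at 6 h, leaving 2.15% (-5.54, SE 0.16, adjusted p = 1.9e-31). DDIT3 (CHOP, 4.11% left), DDIT4 (an mTOR inhibitor, 2.19% left), SESN2 (5.15% left), PPP1R15A (15.5% left) and HERPUD1 (24.8% left) fell as well. The chaperones and folding enzymes HYOU1 (0.43), PDIA6 (0.45) and CRELD2 (0.45) rose; HYOU1 had 18679 and 17522 at 0 h and 48379 and 40612 at 6 h. Without 0 h replicate 2 the list had 3 rises, and without 6 h replicate 1, or with TPM scaled to its spike-ins, it had 4. HYOU1 did not pass without 6 h replicate 1 (0.35), PDIA6 without 0 h replicate 2 (0.39) and CRELD2 without 0 h replicate 1 (0.37) or 6 h replicate 2 (0.28).

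Among p53 targets, 16 of 30 fell. The cell cycle inhibitor CDKN1A kept 9.81% (2393 and 2319 at 0 h, 364 and 481 at 6 h), PPM1D kept 4.90%, PLK2 7.41%, SESN2 5.15% and AEN 18.7%. MDM4, which restrains p53, had 196 and 228 at 0 h and 467 and 477 at 6 h and did not pass against the spike-ins (0.30). Against 27.6% of all genes, 6 of 15 BCL2 family genes fell. Both pro-death members (BBC3, 9.34% left; BMF, 20.9%; BCL2L11, 27.1%; BIK, 20.1%) and the survival factors MCL1 (32.2%) and BCL2L1 (42.5%) were among them, while the pro-death gene BAD (0.06) and BCL2L12 (0.16) did not pass against the spike-ins. As deposited, BIK did not pass without 0 h replicate 2 (-0.99) or 6 h replicate 1 (-0.90), nor BCL2L1 without 6 h replicate 2 (-0.25). The death adaptor FADD was among the 20 largest falls, from 826 and 780 at 0 h to 34 and 37 at 6 h (-5.31, SE 0.26).

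Mitotic regulators fell in 21 of 31 cases, with a median of 41.8% remaining and a more gradual course. AURKA, a spindle kinase, had 3655 and 3582 at 0 h, 1508 and 1359 at 3 h and 743 and 713 at 6 h (11.1% left), and PLK1 had 6464 and 6460, then 3257 and 3389, then 1217 and 1288 (10.7% left). TTK (9.75%), CDC25A (9.99%), KIF11 (14.7%) and CCNB1 (15.8%) fell. Survivin (BIRC5, 2415 and 2416 at 0 h, 4463 and 4975 at 6 h) and the checkpoint protein MAD2L1 did not pass against the spike-ins, at 0.10 and 0.08. MAD2L1BP, which ends the signal of MAD2L1, was among the 20 largest falls (808 and 753 to 31 and 41; -5.26, SE 0.24). In DNA replication 15 of 37 genes fell, against 27.6% of all genes. The falls included the licensing factor CDT1 (17.5%), E2F3 (14.6%), MCM10 (21%), ORC1 (20.7%) and RFC4 (20.9%), while TYMS (0.11) and RFC2 (0.01) did not pass against the spike-ins.

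Many mRNAs of the decay machinery itself fell. Of 23 AU-rich element, BTG/TOB and deadenylation genes 13 fell, against 27.6% of all genes. ZFP36L2, which binds AU-rich elements and recruits deadenylases, went from 2589 and 2900 at 0 h to 307 and 247 at 3 h and 263 and 288 at 6 h (5.56% left). BTG1 (5.75%), TOB1 (7.10%), BTG2 (12.8%), TOB2 (18.3%) and the deadenylase subunit CNOT2 (20.2%) fell, and PAN2, a poly(A) nuclease, did not pass against the spike-ins (0.18). Among 35 decapping, exonuclease, exosome and nonsense-mediated decay genes 15 fell, among them DCP1B (11.2%), EXOSC9 (11.1%), DDX6 (18.6%), DCP1A (28.6%), XRN1 (30.9%) and DIS3 (29.6%). SMG5 (0.12), LSM4 (0.23) and LSM7 (0.12) did not pass against the spike-ins.

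Of 25 cleavage and polyadenylation factors, the family to which CPSF6 belongs, 12 fell and 2 rose, against 27.6% and 5.83% of all genes. FIP1L1, which ties poly(A) polymerase to the cleavage complex, had 453 and 426 at 0 h, 89 and 124 at 3 h and 36 and 45 at 6 h (5.20% left; -4.26, SE 0.22). CLP1 of cleavage factor IIm kept 7.24%, CSTF1 11.1%, CSTF2T 13.3%, WDR33 22.4% and the poly(A) polymerase PAPOLG 22.6%. CPSF1, the largest subunit of the cleavage complex, had 2938 and 2908 at 0 h and 7422 and 6653 at 6 h (0.41, SE 0.14, adjusted p = 0.013), and PABPC1, which coats poly(A) tails, rose too (0.42). Without 0 h replicate 1 or 2, 1 of these rises was left, and without 6 h replicate 1 neither passed (0.37 and 0.33). CSTF1 kept more in silenced than in control cells (control -4.40, adjusted p of the difference 0.0012). In the splicing list 10 of 34 genes fell, a share near the 27.6% of all genes, and 20 were higher as deposited. Among the falls, the SR protein kinases CLK1, CLK3 and CLK4 kept 15.1%, 12.1% and 15.3% and the splicing regulator TRA2B 27.7%, while HNRNPA1, HNRNPA2B1 and HNRNPC, with changes of 0.11 to 0.19, did not pass against the spike-ins (HNRNPA1 did, at 0.19, without either 3 h replicate). Zinc finger genes, most of which encode KRAB repressors of transposons, fell in 41 of 71 cases, for example ZNF184 (6.58%), ZNF114 (5.89%), ZNF324 (7.46%) and ZNF274 (13.6%), and ZNF331 rose (0.47), though not without 0 h replicate 1 (0.39) or 6 h replicate 2 (0.41). Genes with a ZNF symbol made up 3.22% of all genes tested. This share was 7.24% in genes that kept under 25%, 5.46% from 25 to 50%, 2.5% from 50 to 100% and 0.62% above 100%.

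Cytosolic ribosomal protein mRNAs had a narrow spread, with log2 changes from -0.21 to 0.56 over 79 genes and a median of 0.26. RPS2 had 44245 and 40557 at 0 h and 115672 and 111207 at 6 h (0.56, SE 0.13, adjusted p = 1.3e-04). Against the spike-ins 27 of the 79 rose, a count that was 15 and 6 without 0 h replicates 1 and 2, 16 and 6 without 6 h replicates 1 and 2, and 57 without either 3 h replicate. It was 12 without trend and robust settings or with the median ratio of the spike-ins, and 60 with only the groups compared. As deposited all 79 were higher. In the translation list that follows, the share of falls lay below the 27.6% of all genes. The share of rises lay near the 5.83% of all genes. Translation factors were mixed: of 36, 4 fell and 3 rose, with EIF3A (22.2%), EIF4E (26.5%) and EIF3M (39.3%) lost and EEF1A1 (0.31), EEF1G (0.35) and EIF3I (0.33) higher; none of the 3 rises was left without any 1 of the 0 h or 6 h replicates, without trend and robust settings, with the median ratio of the spike-ins or with TPM. Of 76 nuclear respiratory chain genes 7 rose, a share near the 5.83% of all genes, in a range of changes from -0.67 to 0.56. COX6A1 (0.56) and COX8A (0.53) of complex IV rose, and NDUFV3 (-0.67) and NDUFS4 (-0.59) of complex I were lower against the spike-ins only. COX8A did not pass without 6 h replicate 2 (0.41), nor NDUFS4 without 0 h replicate 1 (-0.48). The 7 rises became 2 and 2 without the 0 h replicates 1 and 2, 4 and 1 without the 6 h replicates 1 and 2, 3 without either control 0 h replicate, 4 without either control 3 h replicate and 16 without either 3 h replicate of the silenced arm. They also became 14 with the replicate block, 18 with only the groups compared, and 2 each without trend and robust settings, without a filter and with the median ratio of the spike-ins.

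Proteasome subunits fell in 5 of 31 cases, a share below the 27.6% of all genes, and 21 were higher as deposited. The 5 were PSMC2 (33.8%) and PSMC6 (26.6%) of the base and PSMD12 (28.6%), PSMD14 (37.3%) and PSMD6 (36.4%) of the lid, while the core subunits PSMA7 (0.06) and PSMB3 (0.10) did not pass against the spike-ins. All 33 lysosomal genes were higher as deposited, and 25 rose on both scales around a median of 0.42. Cathepsin D (CTSD) had 7582 and 8067 at 0 h and 23250 and 20438 at 6 h (0.62, SE 0.14, adjusted p = 9.8e-05), and MAN2B1 (0.62), GAA (0.56), LAMP1 (0.51) and PSAP (0.47) rose; IDUA (1.75) rose from counts of 6 and 9. Without 0 h replicate 1 there were 10 rises and without 6 h replicate 2 there were 11, and there were 14 without trend and robust settings, 16 with the median ratio of the spike-ins and 13 with TPM; LAMP1 did not pass without 0 h replicate 1 (0.41). In the cholesterol pathway 5 of 26 genes fell and 1 rose, shares below those of all genes (27.6% and 5.83%). Among the falls were the enzymes under sterol control SQLE (16.8%), MVK (21.5%) and HSD17B7 (18.2%) and the sterol sensor INSIG2 (29.4%); DHCR7 rose (0.32, adjusted p = 0.045), though not without any 1 of the 0 h or 6 h replicates (0.28 to 0.35) or of the control replicates at 0 h or 3 h (0.32). In iron handling the storage ferritins FTH1 (0.56) and FTL (0.52) rose, FTL from 198350 and 191260 to 498952 and 513178. The regulators IREB2 (20.1%) and FBXL5 (22.9%), which control ferritin translation and the decay of IREB2's product, fell. Over the whole list of metallothioneins and iron handling 4 of 17 genes rose and 2 fell, against 5.83% and 27.6% of all genes. In glycolysis and the pentose phosphate pathway, the main routes of glucose use, 2 of 30 genes rose and 1 fell, around a median of 0.08 (5 rose with the replicate block and 10 with only the groups compared). The share of rises lay near the 5.83% of all genes and that of falls below their 27.6%. Of 34 replication-dependent histone genes, whose main mRNAs lack a poly(A) tail, 10 passed the filter and 1 rose, beside 5.83% of all genes.

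**Figure D3:**
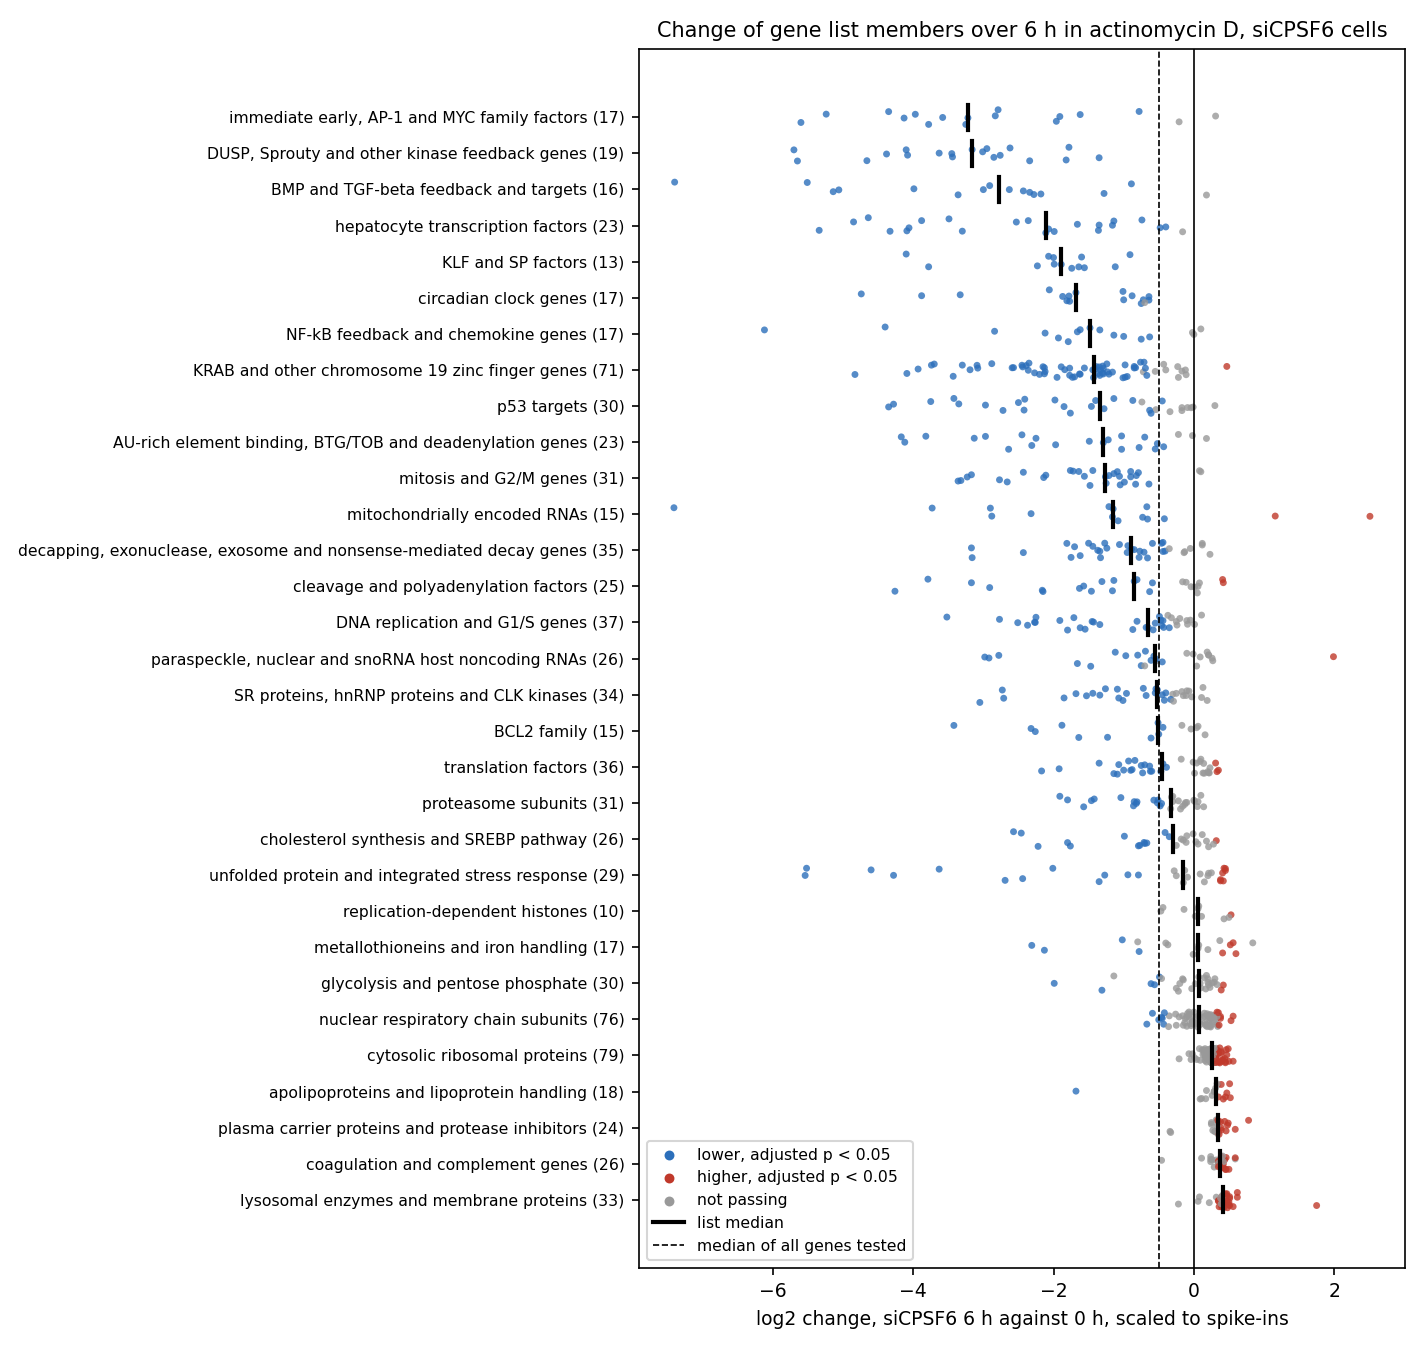
Log2 change from 0 to 6 h in siCPSF6 cells on the spike-in scale (x axis) for each tested member of 31 gene lists (y axis, number of members in brackets), coloured by whether the member passed on this scale; black ticks are list medians and the dashed line is the median of all genes, -0.50. List medians run from -3.22 for immediate early genes to 0.42 for lysosomal genes, and the ribosomal protein list is among the narrowest.

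RNA made in mitochondria spanned nearly the whole range of the data. The mitochondrial genome is transcribed from both strands as long precursors that are cut into 2 rRNAs, 13 mRNAs and tRNAs, and actinomycin D reaches this DNA too. Of the 15 RNAs 9 fell and 2 rose, against 27.6% and 5.83% of all genes. MT-ND6, the only mRNA of the light strand (14149-14673 of the mitochondrial genome), fell to few reads: 1933 and 1765 normalized counts at 0 h, 39 and 30 at 3 h and 14 and 24 at 6 h, or 0.587% left (-7.41, SE 0.26, adjusted p = 3.1e-26). The heavy strand mRNAs fell into a gradient. MT-ND2 (7.55% left), MT-ND1 (13.4%), MT-CYB (13.6%) and MT-ND3 (a log2 change of -2.32) lost most, MT-ND5 (43.2%), MT-CO3 (44.8%), MT-ND4L (45.1%) and MT-CO2 (47.2%) kept under 50%, and MT-ND4 (60.1%), MT-ATP6 (62.9%), MT-ATP8 (63.4%) and MT-CO1 (74.5%) kept more. The last 4 were lower against the spike-ins only. As deposited, MT-CO2 did not pass without 0 h replicate 2 (-0.18) nor MT-ND4L without 0 h replicate 2 (-0.25) or 6 h replicate 1 (-0.16), and against the spike-ins MT-CO1 did not pass without 0 h replicate 2 (-0.36). MT-ND2 had 145863 and 152857 at 0 h and 21315 and 19629 at 6 h, and MT-CO1 484185 and 501019 and then 666935 and 665173. MT-ATP8 and MT-ATP6 overlap, as do MT-ND4L and MT-ND4, and the members of each pair share a precursor.

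The mitochondrial rRNAs moved the other way. MT-RNR1, the 12S rRNA, went from 40339 and 50718 at 0 h to 374054 and 383400 at 3 h and 464388 and 473591 at 6 h, which is 571% of the 0 h level (2.51, SE 0.13, adjusted p = 2.4e-21), and was at 578% already at 3 h. MT-RNR2, the 16S rRNA, stood at 224% (1.16, SE 0.13). Their joint share of all normalized counts rose from 1.69% and 1.80% to 5.11% and 5.34%, while that of the 13 mRNAs went from 8.16% and 8.63% to 4.72% and 4.71%. The libraries were made from mRNA, so a level of these rRNAs is the level in the selected RNA. In the control arm MT-RNR1 changed by 2.29 and MT-ND6 by -8.33, and neither difference between the arms passed (adjusted p of 0.60 and 0.14 on the spike-in scale).

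**Figure D4:**
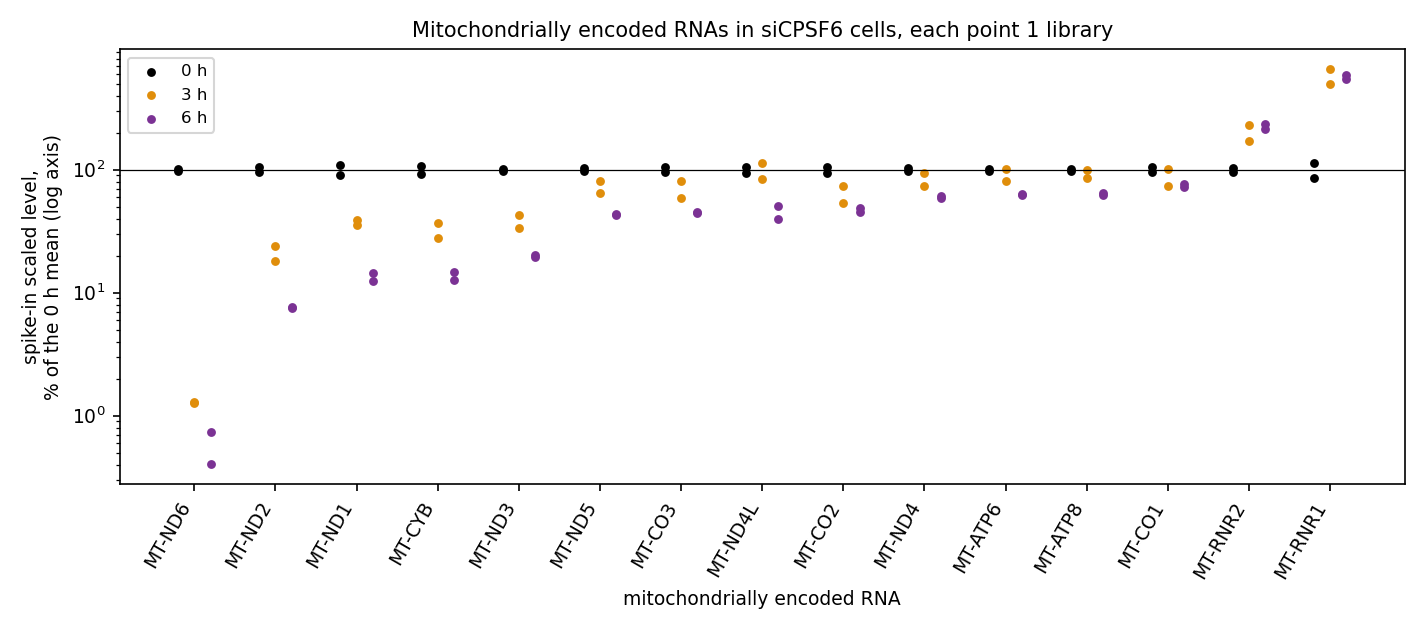
Spike-in scaled level of the 15 mitochondrially encoded RNAs as percent of each one's 0 h mean (y axis, log) in the 6 siCPSF6 libraries; points are single libraries at 0 h (black), 3 h (orange) and 6 h (purple). MT-ND6 ends at 0.587%, the other mRNAs between 7.55% and 74.5%, and the rRNAs MT-RNR2 and MT-RNR1 at 224% and 571%.

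The 15 largest rises, among genes with a mean of at least 100, took in noncoding RNAs, pseudogenes, readthrough transcripts and protein-coding genes. NEAT1, the nuclear RNA that scaffolds paraspeckles (11:65422774-65445540), had 958 and 1459 normalized counts at 0 h, 6010 and 7254 at 3 h and 8046 and 9097 at 6 h (1.99, SE 0.27, adjusted p = 6.9e-05), 398% of the 0 h level. In control cells its change was 0.25, and the difference between the arms passed (adjusted p = 0.023 on the spike-in scale). Of the 26 nuclear and snoRNA host RNAs on its list 5 fell, a share below the 27.6% of all genes, among them SNHG12 (12.7%), SNHG7 (13.2%), SNHG17 (14.6%) and SNHG3 (31.6%). The cytoplasmic RNA NORAD kept 36.0% and MALAT1 did not pass against the spike-ins (0.27). SMG1P1 (1.28), SMG1P3 (1.57) and SMG1P4 (1.65) are pseudogene copies of SMG1, and STX16-NPEPL1 (1.57), TEN1-CDK3 (1.42) and RTEL1-TNFRSF6B (1.33) are readthrough transcripts over pairs of genes. Reads of these 6 can belong to a near-identical or overlapping gene, so their values are uncertain. SMG1P3 had 562 and 526 at 0 h, 1645 and 1888 at 3 h and 2941 and 2927 at 6 h. Of all genes that rose, 4.91% were pseudogenes and 0.928% readthrough genes, against 0.475% and 0.14% of those that fell and 3.10% and 0.348% of all tested. Among protein-coding genes COL7A1, a collagen of the skin's anchoring fibrils, went from 380 and 397 to 1921 and 1682 (1.35, SE 0.16), and EME2 (1.45), SLC22A18 (1.40), CAPN12 (1.33), PGGHG (1.24), ANO9 (1.19) and PRSS53 (1.57) rose; PRSS53 and CAPN12 started from counts of 28 to 39. Control cells had changes of the same sign for all of these, from 0.60 to 1.99.

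The 20 largest falls also held genes of other roles. SGK1, a serum and glucocorticoid induced kinase, went from 979 and 1279 to 41 and 55 (2.40% left), HES1, a Notch target and repressor, from 534 and 386 to 17 and 25 (2.66%), and NEDD9, an adhesion scaffold, from 6645 and 5001 to 310 and 267 (2.76%). FBXO42, a ubiquitin ligase subunit, kept 2.74%, MAP1S, a microtubule protein, 3.00%, and CCDC71 2.36%. CDC42EP2, an effector of CDC42, had 430 and 401 at 0 h and 27 and 0 at 6 h, so that its change of -6.99 has an SE of 1.61. As deposited it did not pass without 0 h replicate 1 (-6.25) or 6 h replicate 2 (-3.89).

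Whether loss differed between silenced and control cells was tested as the difference of the 2 changes. As deposited, 12% of genes had a higher and 12.4% a lower change in silenced cells; on the spike-in scale the shares were 6.89% and 1.84%, and on both scales 862 genes (6.66%) were higher and 232 (1.79%) lower. Of the 862, 845 were lower at 6 h in control cells and 587 in silenced cells against the spike-ins, with median changes of -2.05 and -0.87. Over all 12939 genes, 7469 were lower in control cells and 6780 in silenced cells. Of the 232, 131 were higher in control cells and 20 in silenced cells, while over all genes 1326 and 754 were higher. Both sets were chosen by a difference that holds the control 6 h change. Their direction in control cells is thus partly set by that choice. The median change of the 232 in control cells was -0.26 at 3 h and 0.58 at 6 h, and in silenced cells -0.17 and -0.39. For the 862 the medians at 3 h were -0.97 in control and -0.48 in silenced cells. The cause of the late change in control cells was not tested. The spike-in scale's count of 1130 genes in all depended on single libraries: it was 631 and 629 without the control 0 h replicates 1 and 2, 607 without silenced 0 h replicate 1, and 1807 and 1809 without silenced 3 h replicates 1 and 2. With the replicate number as a block it was 2323. The 238 that were lower in silenced cells on that scale became 89 and 148 without control 0 h replicates 2 and 1, 132 without either silenced 0 h replicate, 158 without silenced 6 h replicate 1, 475 and 476 without silenced 3 h replicates 1 and 2, and 625 with the block. It was 119 without trend and robust settings, 127 with TPM scaled to its spike-ins and 439 with only the groups compared. Of the 1130, 892 were higher in silenced cells. The median difference over all genes on that scale was 0.076. It was -0.02 without control 6 h replicate 1 and 0.165 without control 6 h replicate 2, so its sign rested on 1 library. The spike-in factors of these 2 libraries were 1.3607 and 1.1725. Without silenced 0 h replicate 1 the count as deposited went from 3153 to 2017. The control class that kept under 25% held 2177 genes, against 1589 in silenced cells. Spike-in factors differed between the arms. At 0 h they were 0.6386 and 0.6568 in control and 0.7295 and 0.6925 in silenced cells. At 6 h they were 1.3607 and 1.1725 in control and 1.3292 and 1.2522 in silenced cells. How far these factors set the class sizes was not tested.

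For each of the 8 genes with the largest difference in favour of silenced cells, both control libraries at 6 h lay below both at 3 h. These genes were picked by a difference that uses the control 6 h libraries. Their order in control cells is thus no separate support for a late drop. SLC6A12, a betaine transporter, had 383 and 343 in control cells at 0 h, 406 and 352 at 3 h and 48 and 40 at 6 h, and in silenced cells 127 and 159, 163 and 193, and 200 and 220. The difference was 3.68 (SE 0.30, adjusted p = 1.3e-12). FAM120A, an RNA-binding scaffold protein, had 2358 and 2325, 3368 and 3208, and 823 and 721 in control cells, against 2199 and 2214, 3414 and 2977, and 4270 and 3622 in silenced cells (difference 2.54, SE 0.21). GM2A, the activator of ganglioside breakdown in lysosomes, had 746 and 849 in control and 2963 and 3414 in silenced cells at 6 h from similar levels at 0 h (2.37, SE 0.24). PTGDR2 (3.22, SE 0.68, adjusted p = 0.026) and ITGAL (2.42) showed the same order from lower baselines in silenced cells; PTGDR2 did not pass without control 0 h replicate 1 (3.39) or 2 (3.04). TRIM47 (2.53), BMT2 (2.53) and the p53 target PHLDA3 (2.37) fell in both arms and by more in control cells; PHLDA3 had 1409 and 1696 in control cells at 0 h and 123 and 175 at 6 h, and 1447 and 1834 and then 680 and 820 in silenced cells.

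The 8 genes with the largest differences the other way were picked by the same difference. Of these, 5 were higher at 6 h than at 0 h in control cells. UGT1A1, which conjugates bilirubin, had 11 and 18 in control cells at 0 h, 29 and 24 at 3 h and 245 and 200 at 6 h, and 172 and 118, 253 and 182, and 396 and 224 in silenced cells (-2.75, SE 0.37, adjusted p = 6.1e-07). It shares most of its exons with the other genes of its cluster, so its value is uncertain. LCN15 (-1.93), MT1E (-1.85), a metallothionein, HABP4 (-1.67) and MKKS (-1.66) were higher at 6 h than at 0 h in control cells; HABP4 had 248 and 228 there at 0 h, 261 and 287 at 3 h and 1119 and 1084 at 6 h, and in silenced cells 1171 and 1154 at 0 h and 1628 and 1518 at 6 h. RBM15 (-1.82), of the m6A writer complex, BCL7B (-1.74) and LONRF3 (-1.74) fell in silenced cells, beside control changes of -0.29, -0.64 and -0.37, with RBM15 at 1097 and 990 at 0 h and 453 and 419 at 6 h, against 203 and 193 and then 353 and 281 in control cells. As deposited, LCN15 did not pass without control 0 h replicate 1 (-2.12) or 2 (-1.95) or silenced 6 h replicate 2 (-1.78). Of 79 ribosomal protein genes limma called 0 as different between the arms against the spike-ins (4, all lower, at an unadjusted p under 0.05), while 43 were lower as deposited.

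**Figure D5:**
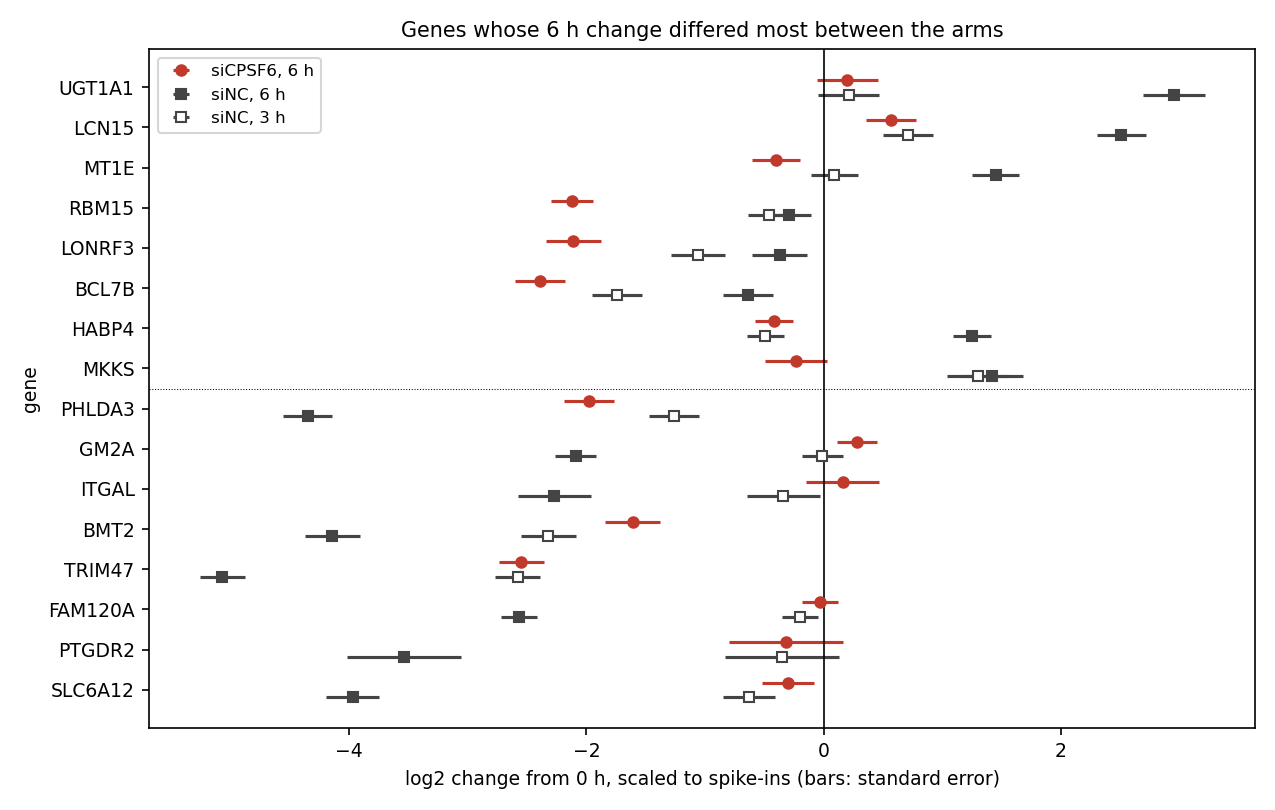
Log2 change from 0 h on the spike-in scale (x axis, bars are standard errors) for the 8 genes that differed most in each direction (y axis), in siCPSF6 cells at 6 h (red circles) and in siNC cells at 6 h (filled squares) and 3 h (open squares). For the 8 genes at the bottom the control value at 6 h lies left of both other points, by 3.68 from the silenced value for SLC6A12.

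The length of the transcripts that remained was followed as apparent transcript length, the log2 ratio of normalized count to TPM, which rises when a gene's reads are assigned to longer isoforms. Of 10542 genes 489 (4.64%) were longer and 431 (4.09%) shorter at 6 h. NEAT1 lengthened by 1.56 (SE 0.10, adjusted p = 0.0011) and had 1.58 at 3 h, against 0.66 at 6 h in control cells; this gene has a short and a long isoform. ZNF891 (1.63), CNKSR3 (1.36), HSBP1 (1.15) and GOSR1 (1.15) were longer, and IGHMBP2 (-2.11), RSF1 (-1.81), KLHL18 (-1.67), FOXO3B (-1.66), IFNLR1 (-1.52) and ZNF81 (-1.52) shorter. These calls lean on the other groups for their error: with the groups compared alone limma gave 0 (1864 at an unadjusted p under 0.05; no other tool was run), and the 920 became 212 and 272 without 0 h replicates 1 and 2, 305 without 6 h replicate 1, and 579 without either control 0 h replicate. NEAT1, GOSR1 and KLHL18 passed with each library left out in turn. ZNF891 (1.54) and RSF1 (-1.77) did not pass without 6 h replicate 1, nor CNKSR3 (1.33 and 1.39) and FOXO3B (-1.57 and -1.75) without 0 h replicates 1 and 2. HSBP1, IGHMBP2, IFNLR1 and ZNF81 did not pass without either 0 h replicate (1.22 and 1.09, -2.17 and -2.04, -1.71 and -1.34, -1.72 and -1.31) nor in several other such fits.

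Some values may hold reads of a neighbour. Of the 232 genes named, 105 overlap an annotated gene on the opposite strand and 70 one on the same strand, and for 48 of these the neighbour is other than a small RNA. The kit keeps the strand, but whether the counting used it is not given in the sources used here, so the values of these genes are uncertain. The 48 are BTG1, C3, CDC42EP2, CLP1, COX6A1, COX8A, CPSF7, CTSD, DDIT3, E2F3, EEF1G, EIF4E, ELF3, FIP1L1, FOXA2, FOXO3B, HERPUD1, HNRNPA1, MAN2B1, MCL1, MKKS, MT-ATP6, MT-ATP8, MT-CO3, MT-ND4, MT-ND4L, PAN2, PER1, PHLDA3, PRSS53, PSMC2, PTGDR2, RPS2, RSF1, RTEL1-TNFRSF6B, SGK1, SMG1P1, SMG1P3, SMG1P4, SNHG3, SPRED2, STX16-NPEPL1, TEN1-CDK3, TGIF1, TGIF2, UGT1A1, VTN and ZNF324.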

How the data were processed

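Poly(A)-selected, strand-specific RNA libraries of 12 HepG2 cultures were quantified by the authors. Reads were processed with STAR and RSEM on hg38, per the submitters' processing notes; no source used here gives versions, annotation or use of strand. The deposited normalized counts are treated as a score, because their upper quartile is 660.5 or 661 in every library and they are whole numbers, so they are not raw counts and sequencing depth is unknown. The second deposited table holds TPM, scaled by the authors. Both have 22235 entries: 87 spike-in rows and 22148 genes, of which 22069 have a symbol and 21694 matched GENCODE release 29, used here for position and 3′ UTR. Per-sample columns left unused numbered 0.

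Genes with a mean normalized count of at least 20 over 12 libraries (12939) were tested with limma 3.58.1 (R 4.3.3) on log2(value + 1), with 6 group means, trend and robust settings and Benjamini-Hochberg adjustment; a log2 change understates that of low genes. For the spike-in scale, values were divided by each library's spike-in sum over the mean sum. Apparent length used genes with a mean of at least 100, centred on the spike-ins. Replicates are biological per the labels; within a group they correlated at 0.9911 to 0.9931 (Pearson, across genes). Same-numbered replicates deviated together, with r between 0.11 and 0.24 over 15 pairs of groups, so the numbers are taken to pair the libraries, from the values and not the labels; the fit without the block was kept as the main one. The scripts were tested on simulated data.

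The comparison, its members and the 33 gene lists (988 of 1011 symbols found) were chosen with earlier results of these data known. Named genes are CPSF6; the 20 largest falls and 15 largest rises, with a mean of at least 100 and passing on both scales; per list up to 6 members with the smallest p and 3 with the largest change opposite to the list's median; the 8 largest differences between arms and 6 largest changes of length in each direction. NUDT21, CPSF7 and ALB stand outside this rule and were named after their values were seen; a few genes that the rule names are not reported here. Alternatives were other pseudocounts, filters, limma settings, scalings, the TPM table, the replicate block, the compared groups alone and each library left out.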

Additional observations from a re-analysis of the deposited data

Results flagged for a closer look

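Differences between the arms in the same 6 h contrast, tested as an interaction with limma, passed at an adjusted p under 0.05 for 3153 genes as deposited and 1130 genes on the spike-in scale. On the spike-in scale the silenced arm kept more of SLC6A12 (difference 3.68 on the log2 scale), PTGDR2 (3.22), FAM120A (2.54), BMT2 (2.53), TRIM47 (2.53), ITGAL (2.42), GM2A (2.37) and PHLDA3 (2.37). It had the lower change for UGT1A1 (-2.75), LCN15 (-1.93), MT1E (-1.85), RBM15 (-1.82), BCL7B (-1.74), LONRF3 (-1.74), HABP4 (-1.67) and MKKS (-1.66). Groups of 2 libraries were too small to be searched for an outlying sample.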

How the results depend on the processing

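The 6 h calls of silenced cells stayed within 1.5 times in every alternative run: 7650 to 10437 genes as deposited (10015 in the fit reported) and 6506 to 8608 on the spike-in scale (7534). Leaving out 1 library gave 9155 to 10133 and 6329 to 8347. The count of rises moved more: 754 on the spike-in scale became 468 with the median ratio of the spike-ins, 438 with TPM scaled to its spike-ins, 596 without trend and robust settings, 1250 with only the groups compared and 1107 with the replicate block. The share of calls that were higher was 64.3% as deposited, 51.4% with median-ratio scaling over genes, 22.8% with TPM and 10% on the spike-in scale.

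Genes that differed between arms as deposited (3153) became 1566 with TPM and 2017 to 3134 with 1 library left out; on the spike-in scale (1130) they became 672 without trend and robust settings, 2323 with the replicate block, 1719 with only the groups compared, 441 with TPM and 607 to 1809 with 1 library left out. The 920 changes of apparent length became 0 with only the groups compared and 212 to 914 with 1 library left out. The block changed no other of these counts by over 1.5 times (10437, 8395, 4395 and 642 genes). The cause of these shifts was not tested.

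Directions as deposited reversed with median-ratio scaling for CPSF6 (-0.23), CPSF7 (-0.28), MT-ATP6 (-0.09), MT-ATP8 (-0.08), MT-ND4 (-0.16) and NDUFS4 (-0.01). With TPM they reversed for CPSF6 (-1.25), CPSF7 (-0.72), HABP4 (-0.32), HSBP1 (-0.80), KLHL18 (0.43), MDM4 (-0.01), MKKS (-0.10), MT-ATP6 (-0.51), MT-ATP8 (-0.79), MT-CO1 (-0.32), MT-ND4 (-0.62), MT1E (-0.23), NDUFS4 (-0.44), NDUFV3 (-1.02) and NUDT21 (-0.24), and for the difference between arms of NFKB2 (0.05). On the spike-in scale TPM reversed HSBP1 (-0.99) and KLHL18 (0.24); the cause was not tested.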
